A study of Mus musculus with 28 samples.

Results

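Pyramidal neurons of the neocortex and of hippocampal field CA1 are both excitatory cells of the forebrain. They share most of the machinery of firing and of synaptic transmission, and differ in connections and in sets of region-restricted transcription factors and channels. TIVA, transcriptome in vivo analysis, samples such cells in place: a light-activated tag enters the cells of a slice, laser light opens it in the neuron picked under the microscope, and there it hybridises to polyadenylated RNA, which is then captured. The RNA contents of single cortical and single hippocampal neurons taken in this way from living mouse brain slices were compared. The libraries were chosen by source name, which gave 7 of the 28 libraries of the series, 2 from cortex and 5 from hippocampus.

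All 7 neurons came from acute coronal slices of C57BL/6 mice 8 to 10 days old. Per the labels' protocols the slices were loaded with 30 µM tag for 90 min, the tag was opened with a 405 nm laser at 80% power, and the field around the opened cell was aspirated with it before capture. The RNA was amplified linearly in 3 rounds, each based on in vitro transcription, and was sequenced in read pairs on an Illumina instrument. No genotype, transgene or other agent is named for either group, and the labels name neither the animals nor the cortical area or layer. The protocol text given for the cortical neurons places imaging in CA1 of the hippocampus, so their region rests on the source name and tissue label. The remaining 21 libraries serve below as references: 3 hippocampal tissue neurons collected by pipette, 3 of bulk hippocampus, 8 cultured TIVA neurons and 7 cultured pipette neurons. The tissue pipette neurons and bulk hippocampus also came from mice 8 to 10 days old. The cultured neurons had been in culture for 7 to 9 days. All 21 references were likewise amplified in 3 rounds. For cultured TIVA neurons the tag was loaded at 10 µM for 15 min and opened at 30% laser power.

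Each library is 1 cell and no animal is named, so each region counts as 1 sample and no test was run. Differences are given by size, beside the range or standard deviation (SD) over neurons. Counts of features called between the regions are set beside the number measured. The files identify their features by UCSC known-gene identifiers without gene symbols, and none could be attached. The neuron and region labels could therefore not be checked against marker genes, and no sequence or position is given.

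The cortical libraries were much shallower. They held 7.89 M and 5.30 M (mega) assigned reads, which are the reads counted to a feature, and the hippocampal ones 24.1 M to 33.4 M, with no overlap. Features were therefore counted after every library was thinned to 5.30 M reads. At that depth the cortical neurons held 7902 and 6841 features with 1 or more reads, and the hippocampal neurons 10472, 9828, 10743, 9413 and 8919. Every cortical neuron lay below every hippocampal neuron. The medians were 7371.5 (SD 750.2, n = 2) and 9828 (SD 748, n = 5), a difference of −2456.5 and a ratio of 0.75005. Without thinning the difference was −3597.5. Reads outside features made up 18.8% and 17.6% of counted reads in cortex and 15.8% to 39.2% in hippocampus, and these ranges overlapped. Depth, region and the day or batch of a library, which the labels do not give, cannot be told apart beyond what thinning removes.

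Fewer features also reached a substantial level in cortex. CPM, counts per 1000000 assigned reads, scales each count to its library. At 50 CPM or more stood 2728 and 1961 features in the cortical neurons and 3699 to 3887 in the hippocampal ones, a difference of medians of −1474.5. The hippocampal counts were close together (SD 73.4, n = 5), and both cortical counts were far below them. Without the first cortical neuron the difference was −1858, and without the second −1091.

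**Figure D1:**
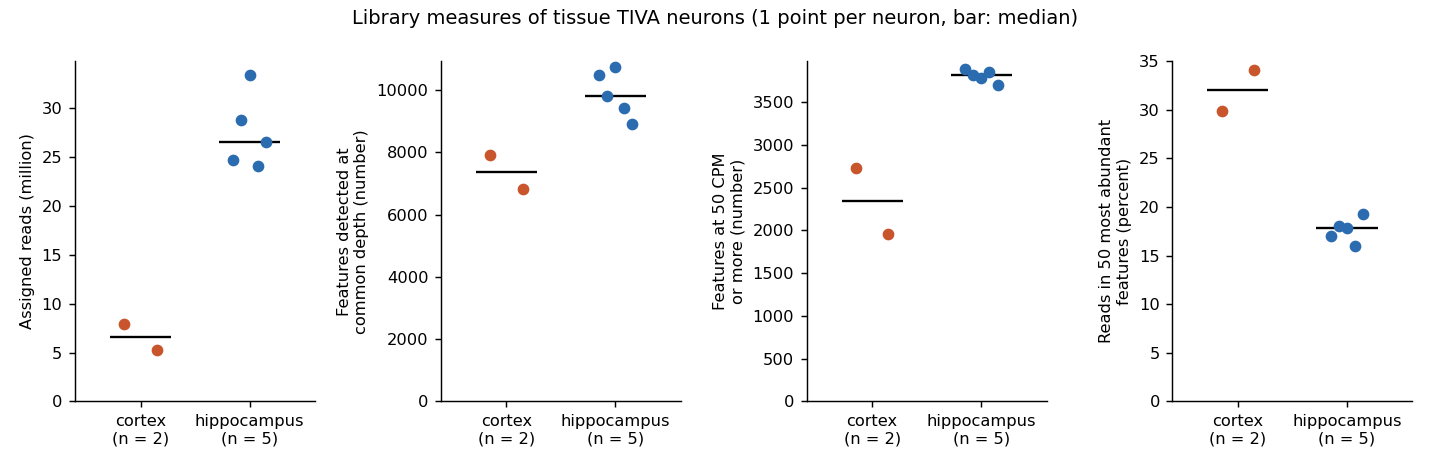
Assigned reads (M), features detected after thinning to 5.30 M reads, features at 50 CPM or more, and share of reads in the 50 most abundant features (percent), 1 point per tissue TIVA neuron, with bars at group medians. The 2 cortical neurons lie outside the range of the 5 hippocampal neurons in all 4 panels.

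The reads of cortical neurons were concentrated in fewer transcripts than those of hippocampal TIVA neurons. The 50 most abundant features took 29.9% and 34.1% of cortical reads, against 16.0% to 19.3% in hippocampus, and the difference of medians was 14.2 percentage points. In hippocampal tissue pipette neurons, with 6.64 M to 11.6 M assigned reads, this share was 21.6% to 24.2%. Bulk hippocampus had 16.2% to 36.6%. Cultured TIVA neurons had 24.5% to 61.5% in cortex and 25.2% to 66.6% in hippocampus, and cultured pipette neurons 13.9% to 19.4% and 14.2% to 18.3%. Such concentration was therefore not particular to cortex. In cortex 251 and 151 features supplied the first 50% of the reads, and in hippocampus 524 to 604. The most abundant feature was the same in all 7 neurons. This feature, uc007xok.1, singled out after its values were seen, took 7.82% and 7.76% of reads in cortex. In the hippocampal neurons it took 1.74%, 1.69%, 2.02%, 1.86% and 2.62%. Both cortical values lay far above the hippocampal ones, and the log2 difference was 1.99, or 2.55 with TMM and 3.26 with DESeq2 scaling. In the hippocampal tissue neurons collected by pipette it was also the most abundant feature and held a place between the regions, at 4.21%, 2.86% and 5.19%.

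A run of 8 features numbered uc009vev to uc009vfc, which dominates the cultured TIVA libraries, belonged to the same concentration. Together these features took 5.79% and 4.85% of reads in the cortical neurons and 0.280% to 1.56% in the hippocampal ones. All 8 had higher mean log2 levels in cortex under each scaling tried. Hippocampal tissue neurons collected by pipette held 2.58%, 4.29% and 2.19%, and bulk hippocampus 23.3%, 7.48% and 4.85%. Hippocampal material thus also reached the cortical share.

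Transcripts abundant in every cell made up much of both kinds of neuron. Exactly 743 features stood at 50 CPM or more in all 7 libraries, and they supplied 58.3% and 65.1% of cortical reads and 43.7% to 49.0% of hippocampal reads. Their median difference between the regions, cortex minus hippocampus, was −0.12 on the log2(CPM + 10) scale. That scale adds 10 CPM before taking logarithms, which understates the change of low features. Each list of the 50 most abundant features shared 29 members between the 2 cortical neurons, 27 to 39 between hippocampal neurons and 18 to 33 between a cortical and a hippocampal neuron.

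Over all 8951 measured features, those averaging at least 5 CPM over the regions, the median difference was −0.86. Only 25.3% of features had a higher mean log2 level in cortex. The shift depended on the level of the feature. For the 4285 features with a higher group mean below 50 CPM the median difference was −0.82, on a scale that understates their change. At 50 to 200 CPM it was −1.21, at 200 to 1000 CPM −0.36, and for the 173 features of 1000 CPM or more 0.50. As shares of assigned reads, the most abundant transcripts were mostly higher and those of middle and low abundance mostly lower in cortex. Over all measured features the shift was −0.68 with TMM and −0.37 with DESeq2 scaling. Single differences are to be read against a shift of this size.

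A feature was called when its mean log2 levels differed by 2 or more, a 4-fold difference on this scale, and when every neuron of the higher region lay above every neuron of the other. By this rule 112 features were higher in cortex, 1.25% of those measured, and 954 were higher in hippocampus, 10.7% of those measured. Cortex-high features made up 10.5% of the calls. With every library thinned to the common depth the counts were 110 and 916. The part of the lower number of features per cortical neuron in these counts was not tested. The balance depended on scaling: TMM gave 203 cortex-high and 719 hippocampus-high features (22.0% cortex-high), and DESeq2 scaling gave 423 and 493 (46.2%). With differences taken from the median of all measured features the counts were 216 and 320 (40.3%). The 112 cortex-high features were called under all 3 of these alternatives, and of the 954 hippocampus-high features 719, 493 and 320 were. All 3 alternatives move cortical levels up relative to hippocampal ones. Cortex-high calls could thus only be gained and hippocampus-high calls only lost, so this overlap says nothing on which calls are firmer. With the second cortical neuron alone against the hippocampal ones the median difference over measured features was −1.14, and with the first alone −0.80. A single cell changes the mean difference, the filter and the number of cells that must lie apart. Counts of calls from 1 cortical cell therefore cannot be set against those above. Regardless of size, 259 features (2.89%) lay higher in both cortical neurons than in any hippocampal neuron, and 2054 (22.9%) lay lower in both.

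**Figure D2:**
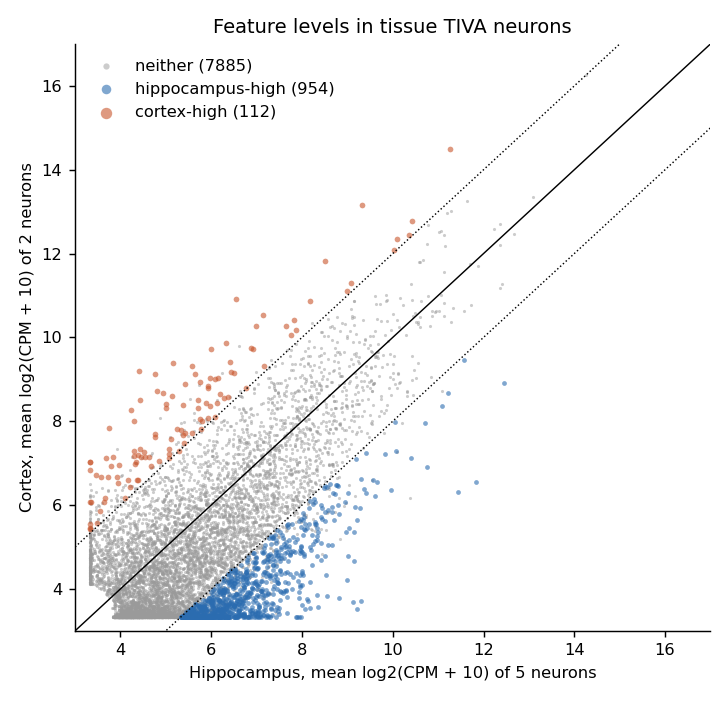
Mean log2(CPM + 10) of the 8951 measured features in the 5 hippocampal (x axis) and 2 cortical (y axis) tissue TIVA neurons, with the line of equality and dotted lines at differences of 2. The 954 hippocampus-high features lie mostly at middle levels along the bottom, and the 112 cortex-high features reach up to the highest levels.

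By this rule hippocampus-high features were mostly of middle abundance. Of the 954, 690 had a hippocampal mean of 50 to 200 CPM, which is 21.2% of the 3253 features measured at that level, and 13 had 1000 CPM or more. Below 50 CPM 90 were called, 2.10% of 4285. The rule limits calls there, since a feature at 0 CPM in cortex needed about 30 CPM in hippocampus. With a pseudocount of 1 CPM 1865 features were called hippocampus-high. Together they took 13.9% to 17.9% of the reads of a hippocampal TIVA neuron and 1.97% and 0.812% of the reads of the cortical neurons. In cortex 253 (26.5%) were at 0 reads in the first neuron, 315 (33.0%) in the second and 156 (16.4%) in both. There 0 reads allow up to 0.380 and 0.567 CPM. The share of all measured features at 0 reads was not computed, and low cortical levels were part of the choice of the 954. The hippocampal pipette neurons had no part in the choice of these features. In them the 954 took 9.60% to 12.1% of reads. The median feature stood at a mean of 56.2 CPM, against 95.8 CPM in hippocampal TIVA neurons and 2.15 CPM in cortical ones. The median of all measured features in these pipette neurons was 29.0 CPM. Of all measured features 4285 had a higher group mean below 50 CPM, whereas the 954 were chosen for high hippocampal TIVA levels. These medians are therefore not matched for level and are a description. In culture the median of the 954 was 68.7 CPM in cortical and 70.1 CPM in hippocampal pipette neurons. By TIVA it was 47.9 and 44.3 CPM, so a level of this size was not particular to hippocampus.

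Cortex-high features were fewer and more abundant. Of the 112, 20 had a cortical mean of 1000 CPM or more, 11.6% of all features at that level. Together the 112 took 9.26% and 12.5% of cortical reads and 0.918% to 2.07% of hippocampal reads. Among them were 5 of the 8 features numbered uc009vev to uc009vfc. In the pipette neurons of the hippocampus the 112 took 3.69% to 5.67%, between the TIVA groups. Their median feature stood at 55.9 CPM there, against 38.6 CPM in hippocampal and 283 CPM in cortical TIVA neurons. The median of all measured features in these pipette neurons was 29.0 CPM, which is not matched for level with the 112. In cultured TIVA neurons the 112 took 13.5% to 45.7% of reads in cortex and 14.6% to 52.9% in hippocampus. By pipette they took 2.32% to 5.83% and 1.20% to 1.51% in culture. Identifiers that join several isoforms made up 61.6% of the cortex-high, 72.9% of the hippocampus-high and 68.5% of all measured features.

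Few abundant transcripts were wholly missing from the other region. At the common depth 1474 features stood at 50 CPM or more in all 5 hippocampal neurons, and 0.407% of them had 0 reads in both cortical neurons. Of the 1146 features at that level in both cortical neurons, 0.175% had 0 reads in every hippocampal neuron. The shared part was larger: 738 features were in both sets, 50.1% of the hippocampal and 64.4% of the cortical one.

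The 4 features named here were the first 2 in each direction by the difference in mean log2 level, among features that averaged at least 20 CPM, with 10 or more reads in every neuron of the higher region and no overlap. Their values fixed the choice and are a description. The feature furthest below its hippocampal level in cortex joins 7 isoform identifiers, beginning with uc007zga.2. Its level was 2.79 CPM (22 reads) and 0.378 CPM (2 reads) in the cortical neurons. In the hippocampal neurons it was 478, 1030, 484, 430 and 662 CPM. No hippocampal neuron came near the cortical levels, and the log2 difference was −5.69. Summed over cells it stood at 1.82 CPM in cortex (95% exact Poisson interval 1.17 to 2.71) and 622 CPM in hippocampus (618 to 626), intervals that cover counting error only.

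The same feature was well detected elsewhere in the hippocampus. Pipette neurons from tissue held 455, 78.9 and 139 CPM, and bulk hippocampus, a mixture of neurons and glia, 1424, 753 and 865 CPM. In bulk tissue the number of cells with a transcript and its amount per cell cannot be told apart. Cultured hippocampal neurons held 753 to 1469 CPM by TIVA and 954 to 1923 CPM by pipette. Cultured cortical neurons held 95.1 to 710 CPM by TIVA and 20.4 to 336 CPM by pipette, so in both kinds of culture every cortical neuron lay below every hippocampal neuron. The cultured differences of −1.99 and −3.48 on the log2 scale were smaller than the tissue difference.

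The other hippocampus-high feature was uc008lrl.1:uc008lrm.1. In the cortical neurons it had 57 reads, or 7.22 CPM, and 0 reads. Hippocampal TIVA neurons held 801, 728, 807, 795 and 237 CPM, the fifth neuron standing far below the other 4. The log2 difference was −5.58, and −5.91 without the fifth hippocampal neuron. Hippocampal pipette neurons from tissue were at the same height, with 654, 1323 and 457 CPM. Cultured neurons were low in both regions by TIVA, at 14.1 to 49.5 CPM in cortex and 25.5 to 82.7 CPM in hippocampus, and there the ranges overlapped. By pipette they were at 0.195 to 46.1 CPM in cortex and 82.2 to 113 CPM in hippocampus, with no overlap.

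In the other direction uc009mja.1:uc012ggn.1 was furthest above its hippocampal level. It stood at 378 and 888 CPM in the cortical neurons and at 1.50, 0.903, 36.4, 0.373 and 59.7 CPM in the hippocampal ones. The hippocampal values fell into a low set of 3 and a higher set of 2, all below cortex, and the log2 difference was 4.81. Hippocampal pipette neurons held 16.0 to 72.9 CPM and bulk hippocampus 47.8 to 144 CPM. In culture the regions overlapped by both means of collection, at 52.7 to 102 CPM in cortex and 14.3 to 121 CPM in hippocampus by TIVA, and at 26.2 to 220 and 40.3 to 71.0 CPM by pipette.

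The feature uc007nhx.1:uc007nhy.1 stood at 700.1 and 433 CPM in the cortical neurons and at 6.67, 32.2, 68.8, 1.33 and 13.1 CPM in the hippocampal ones, a log2 difference of 4.37. A pipette neuron of the hippocampus did not keep this order, at 448 CPM, while the other two held 0.766 and 0.452 CPM (6 and 3 reads). Cultured cortical neurons held 115 to 323 CPM by TIVA and hippocampal ones 41.1 to 129 CPM, with a single hippocampal neuron reaching into the cortical range. By pipette cultured cortical neurons held 35.0, 200.3, 503 and 329 CPM and hippocampal ones 84.2, 89.8 and 135 CPM. One cortical pipette neuron thus lay below every hippocampal one and the other three above.

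**Figure D3:**
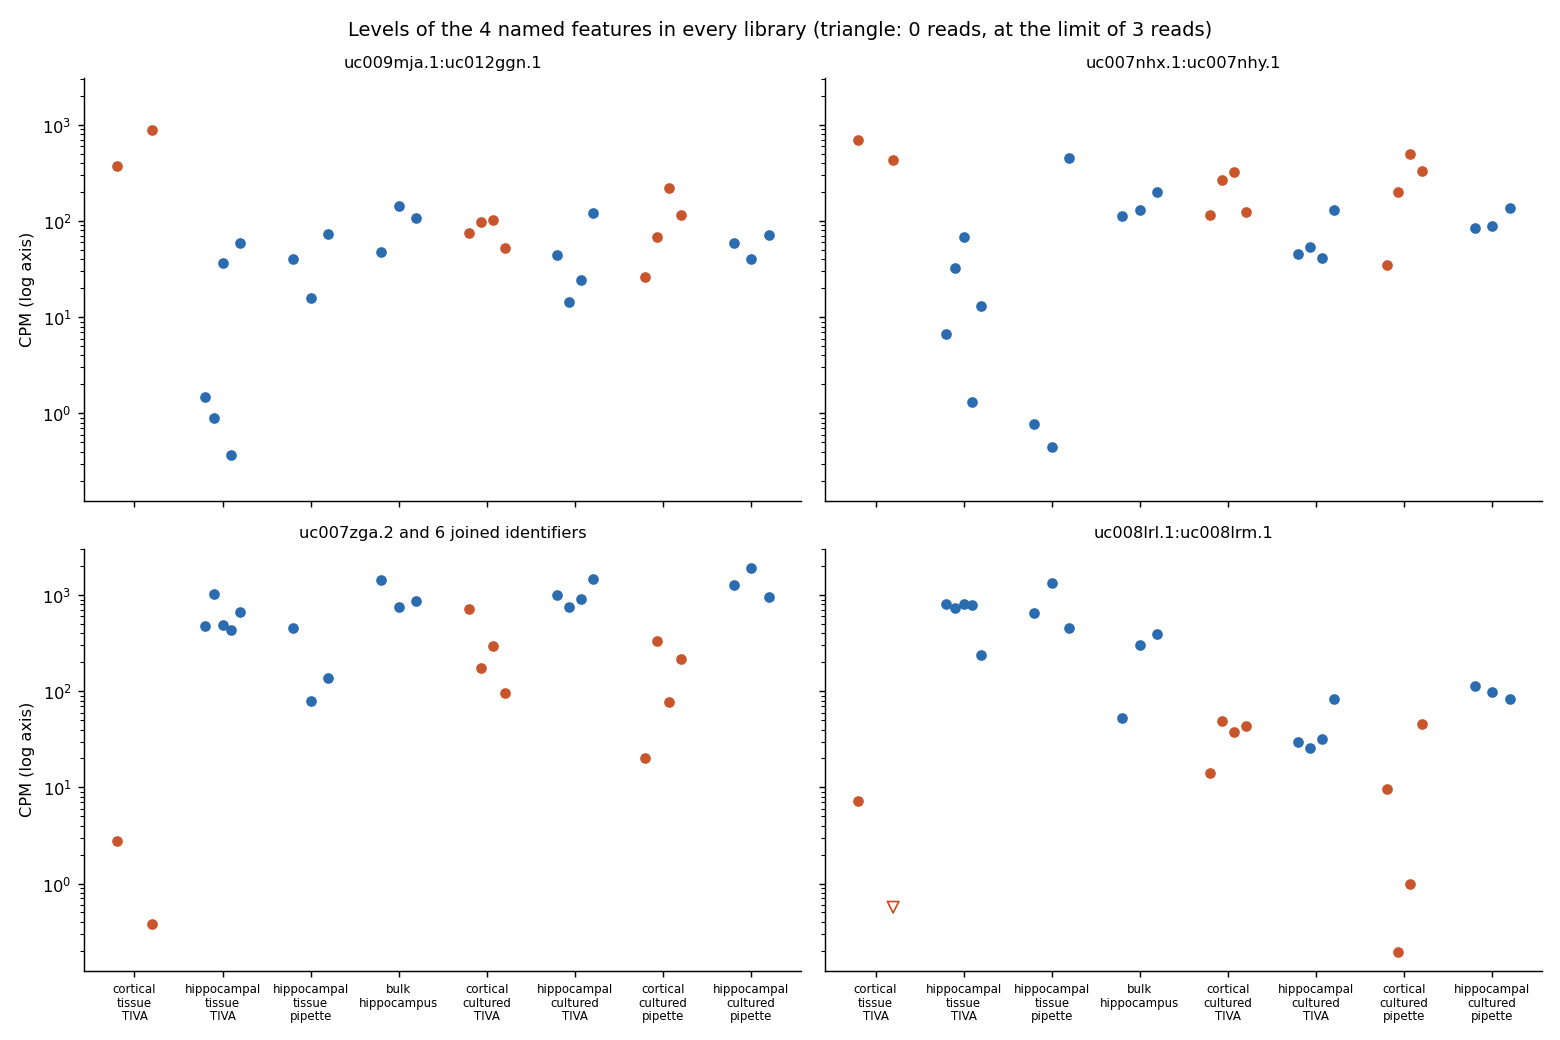
CPM (log axis) of the 4 named features in every library of 8 groups, cortex in orange and hippocampus in blue, with a triangle at the limit of 3 reads for a library with 0 reads. Tissue TIVA groups stand apart in all 4 panels, and the cultured regions stand apart by both means of collection only for the feature beginning with uc007zga.2.

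The first 20 features of each direction were ranked by the tissue difference itself, so their levels are a description. Of the 8951 measured features, the naming rule was met by 1514 in the hippocampal and 236 in the cortical direction. It asks for 10 or more reads in every neuron of the higher region. The regions differ in depth and in number of neurons, so these 2 counts cannot be compared. The 20 hippocampal features had median levels of 335 CPM in hippocampus and 3.28 CPM in cortex. The 20 cortical features had 563 CPM in cortex and 32.0 CPM in hippocampus. Their differences ran from −5.69 to −4.35 and from 4.81 to 3.48. Within the higher region the most and the least expressing neuron differed by a median of 2.59-fold for the hippocampal features (1.55 to 5.06). For the cortical ones it was 2.13-fold (1.01 to 10.4). The former spans 5 neurons and the latter 2, so these folds cannot be compared.

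Differences between the regions were set against those between cells of a region. Across the 8951 measured features the 2 cortical neurons correlated at r = 0.479. Hippocampal neurons correlated with each other at a median of 0.606 (0.508 to 0.691, 10 pairs), and cortical with hippocampal neurons at 0.476 (0.415 to 0.559, 10 pairs). The value of the cortical pair lay within the range between regions, and pairs share libraries and differ in depth. The gap, the mean of the within-region values minus the value between regions, was 0.0667. Between the cortical neurons 29.8% of features were 4-fold or more apart. The median share was 22.1% between hippocampal neurons (14.0% to 29.8%) and 35.9% between regions (29.1% to 39.3%).

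Features of hippocampal neurons were often missing from cortical ones. Among features that reached 50 CPM in a hippocampal neuron, the median share below 1 CPM in a cortical neuron was 25.2% (16.5% to 34.8%). Between cortical neurons the share was 27.8% of the features of the first in the second and 14.8% in the other direction, the latter within the range between hippocampal neurons. In hippocampal neurons fewer features were missing, with a median of 8.99% of those of another hippocampal neuron (4.02% to 16.2%) and 10.8% of those of a cortical neuron (4.49% to 14.6%). These last 2 ranges overlapped almost entirely. With every library thinned to the common depth the 4 medians were 25.6%, 21.6%, 9.15% and 11.1%, the second being that of both directions between cortical neurons.

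**Figure D4:**
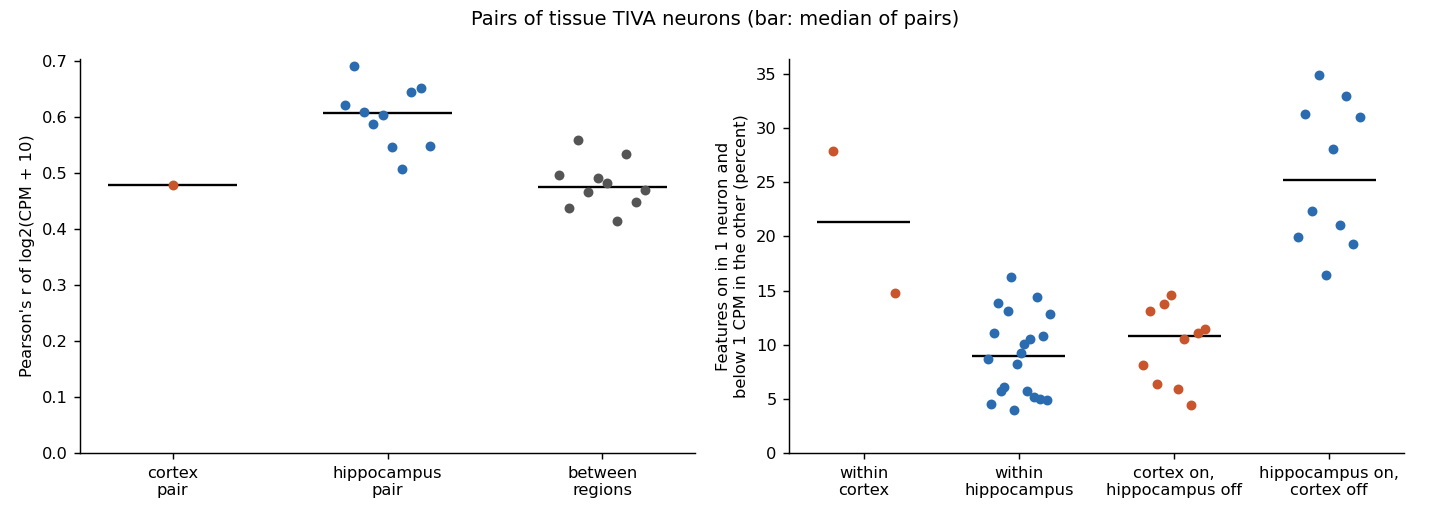
Pearson's r of log2(CPM + 10) for pairs of tissue TIVA neurons (left), and percent of features reaching 50 CPM in 1 neuron and below 1 CPM in the other for ordered pairs (right), with bars at medians. The cortical pair, at r = 0.479, lies within the between-region range, and the shares missing where the first neuron is hippocampal and the second cortical run from 16.5% to 34.8%, above the 4.02% to 16.2% between hippocampal neurons.

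Cultured neurons offer a contrast of the same 2 regions in libraries that share none with the tissue comparison. They differ from the tissue neurons in days in culture and, for TIVA, in tag dose, loading time and laser power. Over all measured features, cortex minus hippocampus in tissue was nearly unrelated to the same difference in cultured TIVA neurons (r = 0.0523) and in cultured pipette neurons (r = 0.0687), correlations across features that are not independent replicates. Of the 112 cortex-high features, 77 (68.8%) had the higher mean log2 level in cortex in cultured TIVA neurons, where 63.4% of all measured features did. In cultured pipette neurons these were 52 features (46.4%), beside 38.5% of all measured. Of the 954 hippocampus-high features, 400 (41.9%) were higher in hippocampus in cultured TIVA neurons, beside 36.6% of all measured, and 575 (60.3%) in cultured pipette neurons, beside 61.4%. These shares were near the background. With TMM scaling the cultured TIVA shares were 51.2% of cortex-high features, beside 45.1% of all measured, and 58.7% of hippocampus-high features, beside 54.9%. In pipette cultures the hippocampus-high share moved above its background with a pseudocount of 1 CPM, at 69.4% beside 67.4%. The median differences of the called features were also close to those of all measured features, at 0.21 against 0.13 for cortex-high and 0.11 against 0.13 for hippocampus-high features in TIVA cultures. In pipette cultures they were −0.06 and −0.24 against −0.20.

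Calls by the same rule were more frequent among the tissue calls than among all features in pipette cultures. There 42 of the 954 hippocampus-high features (4.40%) were also called higher in hippocampus, beside 1.77% of all measured features and 2.42% of those with a tissue mean of 50 CPM or more in the higher region. Among the 112 cortex-high features 7 (6.25%) were called higher in cortex, beside 0.469% of all measured and 0.707% of those at that level. In TIVA cultures calls were rare for any feature. Of the 112, 2 (1.79%) were called higher in cortex, beside 0.201% of all measured and 0.236% of those at that level. Of the 954, 2 (0.210%) were called higher in hippocampus, beside 0.0782% and 0.129%. Each of these shares rests on 2 features. The 20 highest-ranked hippocampal features were higher in hippocampus for 15 of 20 in each kind of culture and for 12 in both. Of all measured features 36.6% were higher in hippocampus in TIVA and 61.4% in pipette cultures. The 20 cortical features were higher in cortex for 18 in TIVA cultures, 11 in pipette cultures and 9 in both. Of all measured features 63.4% and 38.5% were higher in cortex. The share of all measured features in both was not computed. These ranks were drawn up with the tissue values alone.

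**Figure D5:**
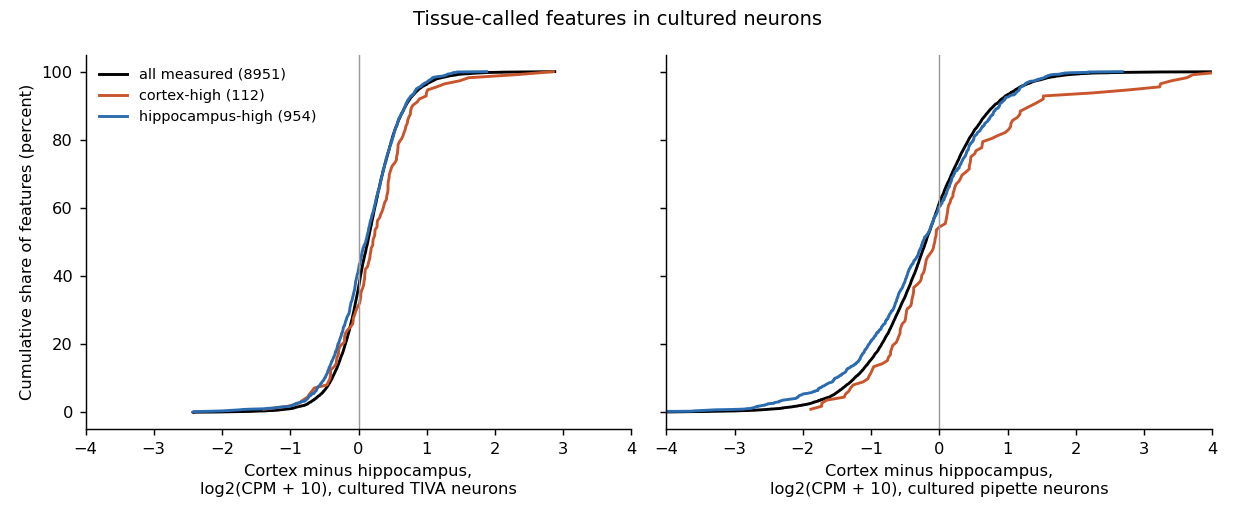
Cumulative share of features (percent) against the cortex minus hippocampus difference in cultured TIVA (left) and cultured pipette neurons (right), for all 8951 measured features, the 112 cortex-high and the 954 hippocampus-high features of the tissue comparison. The 3 curves run close together near 0, and in pipette cultures the tails of the called features lie outside that of all measured features.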

How the data were processed

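For each library the authors deposited raw counts of reads, with a row for each of 28661 features, 11967 of them joining several identifiers. Per the submitters' processing notes, CASAVA 1.8.1 and HTSeq were used with the mouse build mm9. Aligner, counting mode and strandedness were not given in the sources used, so reads of overlapping, antisense or near-identical features may be mixed. Library totals exclude the 5 summary lines of HTSeq. Of 55419 single identifiers, 0 matched the tables given with the data, so the marker lists of neurons, regions and glia could not be used.

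Counts were scaled to CPM of assigned reads, thinned once to 5.30 M (mega) reads with a fixed seed for detection, and compared on the log2(CPM + 10) scale. A feature at 0 CPM in a region needed about 30 CPM in the other to reach a difference of 2. Features were named by the rule given with them, and without symbols 2 in each direction were named. No pair of libraries of a region agreed within sampling noise (lowest chi-square per degree of freedom 604). Libraries were numbered by record order, which pairs none. The members, rules and lists were chosen with earlier results of these data known. Alternatives were TMM factors (edgeR 4.0.16), DESeq2 1.42.0 size factors, other pseudocounts, limits and filters, summed counts and leaving out each library. The count script was tested on simulated data. Python 3.11.15 was used, with R 4.3.3 for scaling.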

Additional observations from a re-analysis of the deposited data

Results flagged for a closer look

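In 4 of 27 groups of values checked, a neuron lay further from its nearest neighbour, relative to the whole range of the group, than Dixon's 95% limit, which chance passes in about 1 of 20 groups. The fifth hippocampal tissue TIVA neuron had the highest share of ambiguous reads, 2.54%, and the lowest level of uc008lrl.1:uc008lrm.1, 237 CPM. The fourth cultured hippocampal TIVA neuron had the highest level of that feature, 82.7 CPM, and of uc007nhx.1:uc007nhy.1, 129 CPM.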

How the results depend on the processing

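Cortex-high and hippocampus-high features numbered 203 with TMM (cortex) and 423 and 493 with DESeq2 scaling, 1865 (hippocampus) with a pseudocount of 1 CPM, 233 and 1855 at a difference of 1, and 35 and 233 at a difference of 3. Centring on the median, chosen after seeing the data, gave 216 and 320. Leaving out a library gave 115 to 668 cortex-high and 1027 to 1953 hippocampus-high features. Without thinning the difference in detected features was −3597.5, and with thinning it was −2987 to −1926 leaving out a library. At 10 CPM the difference in features was −2297, and at 50 CPM it was −1858 to −1091 leaving out a library. The difference in read share was 9.78 points for the 10 and 17.6 for the 200 most abundant features, and 12.1 to 16.3 for 50 leaving out a library. With an on limit of 20 CPM the share missing was 14.9% within hippocampus and 33.2% for hippocampal features in cortex. At 200 CPM the shares were 11.8% within cortex, 1.32% within hippocampus, 6.75% for cortical features in hippocampus and 8.03% for hippocampal features in cortex.

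In cultured TIVA neurons 38.2% to 42.1% of hippocampus-high features kept the same region leaving out a library. There the same-region shares with TMM were 51.2% of cortex-high (45.1% of all measured) and 58.7% of hippocampus-high features (54.9%). In cultured pipette neurons they were 57.1% (48.8%) and 49.4% (51.1%). A pseudocount of 1 CPM gave 35.3% (32.5%) and 69.4% (67.4%) there, and a difference of 1 gave 64.0% (61.4%) of hippocampus-high features. The cause of these moves was not tested. In these pipette cultures the hippocampus-high share lay below that of all measured features as reported and with TMM, above it in the last 2 settings, and on either side leaving out a library. The 4 named features kept their direction under the 6 settings tried and without each library. No paired analysis was possible because the labels give the libraries no shared numbers. No interval smaller than the spread of 2 cortical neurons can be given for cortex, and 0 reads there allow up to 0.380 and 0.567 CPM.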
